A study of Mus musculus with 21 samples.

Results

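The genes described here are 49 mouse genes of ribosome biogenesis and RNA polymerase I, chosen by a list of symbols, out of 54446 gene identifiers in the count table. All 49 symbols matched 1 identifier each, and all 49 passed the filter on low counts. They were measured by RNA sequencing in stem and progenitor cells of mouse bone marrow that lacked or carried Phf6. KO groups carried a Phf6 knockout and WT groups the wild-type gene. The groups were 3 KO LT-HSC and 2 WT LT-HSC libraries, 4 KO MPP2 and 4 WT MPP2 libraries, and 4 KO MPP3 and 4 WT MPP3 libraries. LT-HSC are the long-term stem cells of blood formation. MPP2 and MPP3 are multipotent progenitors that lean towards megakaryocyte-erythroid and myeloid output. Every mouse was C57BL/6 and 12 weeks old. Marrow cells were sorted after staining with a lineage cocktail and antibodies to Sca-1, cKit, CD150 and CD48, and each library came from 100 to 200 sorted cells. The allele design, any Cre driver and the sex of the mice were not stated by the labels, and neither were separate cell counts for each library. Libraries with the same genotype and number have consecutive title numbers, as if from 1 mouse, except KO LT-HSC 3, whose number follows those of KO MPP3 4 and KO MPP2 4.

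Ribosomes are made in the nucleolus. RNA polymerase I transcribes the long precursor of the ribosomal RNAs there, UBTF (also called UBF) holds the ribosomal DNA open for it, and RRN3 brings the polymerase to the promoter. Box C/D and box H/ACA particles then modify the precursor, the small subunit processome folds and cuts it, and separate sets of factors build the small and the large subunit. Dividing progenitors are known to make more ribosomes than quiescent stem cells, and stem cells are known for low protein synthesis. PHF6, a protein with PHD-like zinc fingers that is mutated in T-cell leukaemia, is reported to bind UBF in the nucleolus.

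Depth lay between 18892723 and 31611366 counts per library, with a median of 26158938. Levels are CPM, the counts of a gene scaled to the same total of counts in the tested genes for each library, adjusted by TMM factors (trimmed mean of M values), and none of the 49 genes was near 0, since the lowest count of any of them in any library was 114. Phf6 checked the labels: it had 2.45 to 13.3 CPM in the 11 KO libraries, against 54.4 to 210 CPM in the 10 WT libraries, with no overlap. Its log2 fold change in LT-HSC was -3.96 (adjusted p = 0.0371, edgeR), that in MPP2 -3.54 (0.0104) and that in MPP3 -3.86 (0.00376). Slamf1, which encodes CD150, lay between 9.18 and 80.1 CPM in MPP2 and between 0.00 and 1.99 CPM in MPP3, and Cd48 was at most 19.1 CPM in LT-HSC and at least 165 CPM in the progenitors. In MPP2, Flt3 (progenitor marker) was at 137 to 591 CPM in libraries 1 and 2. In MPP2 3 and 4 it was at 4.81 to 40.9 CPM. Ly6a, which encodes Sca-1, was at 158 to 1429 CPM in MPP2 1 and 2 and 5.74 to 31.3 CPM in 3 and 4. In MPP3 it was at 190 to 700 CPM in libraries 1 and 2 and 48.2 to 90.0 CPM in 3 and 4. The part of these differences in the values of the 49 genes was not tested. A single gene took 10% or more of the counts in 3 libraries: Igkc, an antibody light chain, took 19.79% in KO MPP2 1 and 11.42% in KO MPP3 1, and CT010467.1 took 10.25% in KO MPP3 2. The counts and medians of the 49 genes in comparisons that use MPP2 or MPP3 are given with and without these 3 libraries, but not the differences between genotype effects or the wider pathway list. The summed level of 6 B and plasma cell markers reached 749920 CPM in KO MPP2 and 40572 CPM in WT MPP2, and that of 7 neutrophil markers reached 14787 CPM in KO MPP2 and 4489 CPM in WT LT-HSC.

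Levels per kilobase of exon allow a rough comparison between genes. The length counts the exons of every annotated transcript of a gene, which can exceed the length of any 1 transcript. The ranks depend on it: Nop58 (402 CPM, 10758 exon bases) ranks 16 per kilobase and Nop16 (160 CPM, 1845 exon bases) ranks 3. Npm1, which encodes nucleophosmin, a granular protein of the nucleolus, stood at 611 CPM per kilobase as a mean of the 6 groups. Ncl (nucleolin, a processing factor of the precursor) followed at 130 CPM per kilobase, then Nop16 (large subunit) at 86.9, Dkc1 (pseudouridine synthase of the box H/ACA particle) at 79.6 and Nop56 (core of the box C/D particle) at 77.8 CPM per kilobase. The lowest were Utp20, a large scaffold of the processome, at 2.61 CPM per kilobase and Polr1a, the largest subunit of RNA polymerase I, at 3.02. The spread between libraries of 1 group was smallest for Gnl3 (nucleostemin), with a pooled SD of 0.18 on the log2 scale, and largest for Noc2l, Rrs1 and Bysl, at 1.10, 0.79 and 0.71. Noc2l, a factor of large subunit export, had 30.7, 135 and 167 CPM in KO LT-HSC 1 to 3, against 104 and 112 CPM in WT LT-HSC 1 and 2. Exons of 21 of the 49 genes share positions with another gene, 19 of them with a gene on the opposite strand, and the sources used here do not say whether the counting used strand. Bysl shares positions with Ccnd3, Heatr1 with Lgals8, Noc2l with Samd11 and Pno1 with Wdr92, so their values are uncertain by what those genes contribute.

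Promoters are shown because most fitted folds of the genes had the same sign in several comparisons, and because the E-box CACGTG, which MYC and its partners are known to bind, is a textbook element of such genes. RefSeq windows of 250 bases before to 50 after the start (GRCm38.p6) were found for 43 of the 49 genes. The E-box, whose letters read the same on both strands, stood in 12 of the 43 genes (27.9%), in 8.09% of all genes with a window and in 12.4% of those with a mean of 10 CPM or more. The letters CCGGAAG, a core of ETS factor motifs, stood on either strand in 13 of the 43 (30.2%), in 9.93% of all genes and in 23.7% of those of 10 CPM or more, and 6 genes held both motifs. The genes with an E-box were Rrn3, Mybbp1a, Utp4, Utp18, Utp20, Wdr43, Ltv1, Pno1, Tsr1, Pes1, Nop2 and Nle1. It stood before the start only in Rrn3, Nop2 and Utp18. In the rest it began after the start, from 2 bases (Pes1) to 40 bases (Mybbp1a). The stretches below end at the last base before the RefSeq start and run 5′ to 3′ on the strand of the gene, with each E-box in capitals. Rrn3 has 2 of them, starting 215 and 48 bases before the start, Nop2 has 1 at 60 bases and Utp18 1 at 20 bases. Nat10, with the largest fold in KO LT-HSC and KO MPP2 of all 49, has no E-box in its window.
Rrn3 (chr16:13780449-13780698, plus strand): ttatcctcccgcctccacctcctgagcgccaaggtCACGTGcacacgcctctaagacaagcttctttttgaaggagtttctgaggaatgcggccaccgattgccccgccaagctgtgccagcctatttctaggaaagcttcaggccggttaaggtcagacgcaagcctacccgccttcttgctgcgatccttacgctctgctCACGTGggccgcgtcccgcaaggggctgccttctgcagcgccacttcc
Nop2 (chr6:125131763-125131882, plus strand): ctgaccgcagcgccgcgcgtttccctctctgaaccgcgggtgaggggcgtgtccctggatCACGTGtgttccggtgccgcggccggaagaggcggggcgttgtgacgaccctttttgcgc
Utp18 (chr11:93885767-93885846, minus strand): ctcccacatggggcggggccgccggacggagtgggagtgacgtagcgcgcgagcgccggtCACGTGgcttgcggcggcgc
Nat10 (chr2:103761271-103761390, minus strand): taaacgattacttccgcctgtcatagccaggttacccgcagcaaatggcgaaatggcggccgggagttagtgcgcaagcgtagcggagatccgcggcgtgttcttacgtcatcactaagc

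The first question was whether loss of Phf6 moved these genes. None of the 49 passed the test in any of the 3 populations (edgeR's quasi-likelihood test, Benjamini-Hochberg over 21100 genes, threshold 0.05), yet most fitted folds lay above 0. Of the 49, 27 were higher in KO in all 3 populations, 18 in 2 and 4 in 1. These genes did not vary independently: 48 lay above their own mean in KO MPP2 2 and 4 each, and 7 in KO MPP2 1. Between libraries of 1 group, the median deviation of the 49 had a pooled SD of 0.26 (log2). The median folds of the main fit, 0.25 (LT-HSC), 0.26 (MPP2) and 0.13 (MPP3), were no larger than this spread of single libraries. The counts above 0 are therefore not counts of independent genes, and no test of the 49 as a set is given. The summed level of the 49 genes was 8020, 8185 and 7601 CPM in KO LT-HSC 1 to 3, against 6955 and 6216 CPM in WT LT-HSC 1 and 2. It was 6564, 10225, 10654 and 10983 CPM in KO MPP2 1 to 4, against 7984, 7924, 10178 and 8400 CPM in WT MPP2 1 to 4. In MPP3 the sum was 6997, 6419, 8953 and 8902 CPM in KO libraries 1 to 4, against 7339, 6871, 8169 and 6840 CPM in WT libraries 1 to 4. The KO and WT sums did not overlap in LT-HSC and overlapped in MPP2 and MPP3, where the lowest KO sums came from the libraries rich in 1 gene. Npm1 and Ncl, the most abundant of the genes, weigh most in these sums. In bulk samples, fewer cells of a type and less RNA per cell cannot be told apart.

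**Figure D1:**
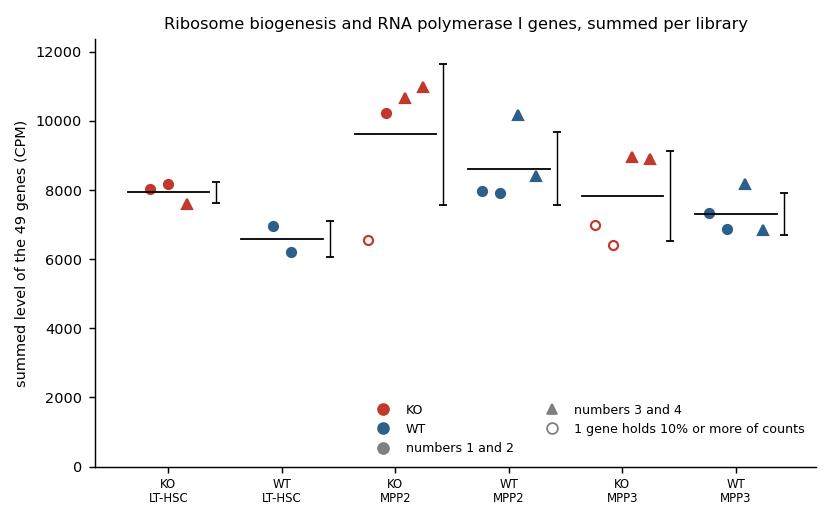
Summed level of the 49 genes in CPM (vertical axis) in each library of the 6 groups; horizontal lines are group means, bars are ± 1 SD, circles are libraries numbered 1 and 2, triangles 3 and 4, and open symbols libraries in which 1 gene holds 10% or more of the counts. The 3 KO LT-HSC libraries sit between 7601 and 8185 CPM, above both WT LT-HSC libraries at 6216 and 6955 CPM.

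In LT-HSC, the fitted levels of 45 of the 49 genes were higher in KO and those of 4 lower (median log2 fold change 0.25), beside 50.3% higher and a median of 0.00 over all 21100 genes. None passed the test (0.00474% of all genes did, which is Phf6 alone), none had an unadjusted p under 0.05, and DESeq2 and limma voom called none, with 0 and 8 at an unadjusted p under 0.05. For other tools and alternative fits, here and below, the share of all genes at an unadjusted p under 0.05 was not computed. All 3 KO libraries lay above both WT libraries for 15 genes, beside 7.53% of all genes tested. These were Rrn3 and Polr1b of the polymerase, Utp4 and Utp18 of the processome, Nop58 of the box C/D particle, Gnl3 of the nucleolus, Ltv1, Pno1 and Tsr1 of the late small subunit, and Wdr12, Nip7, Ddx18, Noc3l, Nle1 and Mrto4 of the large subunit. By role, all 13 large subunit factors, all 7 nucleolar factors and all 5 modification factors had folds above 0, with medians of 0.34, 0.33 and 0.37, and the 7 genes of RNA polymerase I and its factors had a median of 0.05. Ubtf, Wdr75, Utp20 and Rrp12 were the 4 genes below 0.

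Nip7, a factor of large subunit assembly, had the smallest p. It had 161, 156 and 208 CPM in KO LT-HSC 1 to 3, against 118 and 119.7 CPM in WT LT-HSC 1 and 2, a log2 fold change of 0.55 ± 0.29 (SE; adjusted p = 1, edgeR). The KO values all lay above the WT values. Nop58, a core protein of the box C/D particle, had 471, 449.9 and 395 CPM in KO LT-HSC 1 to 3, against 351 and 326 CPM in WT LT-HSC 1 and 2 (log2 fold change 0.37 ± 0.21, SE). Noc3l, of large subunit export, had 23.5, 25.9 and 20.4 CPM in KO LT-HSC 1 to 3, against 18.3 and 13.8 CPM in WT LT-HSC 1 and 2 (0.53 ± 0.31). In both genes, all KO values lay above the WT values. Nat10, the acetyltransferase of ribosomal RNA, had the largest fold, 0.73 ± 0.42 on the log2 scale (SE). Its level was 41.4, 30.6 and 65.9 CPM in KO LT-HSC 1 to 3, against 31.98 and 23.6 CPM in WT LT-HSC 1 and 2, so that KO LT-HSC 2 lay below WT LT-HSC 1. Npm1 had 2212, 1557 and 1334 CPM in KO LT-HSC 1 to 3, against 1421 and 1193 CPM in WT LT-HSC 1 and 2 (0.38 ± 0.22), with KO LT-HSC 3 below WT LT-HSC 1. KO LT-HSC 3 has no WT library of its number, and within numbers 1 and 2 the folds were above 0 for 40 of 49 genes, with a median of 0.26. With the label number as a block, 34 of 49 were above 0 with a median of 0.11, and without WT LT-HSC 2 the count was 40 of 49 with a median of 0.17. Without WT LT-HSC 1 the count was 41 with a median of 0.35. The 7 neutrophil markers summed to 15.8, 58.3 and 6.77 CPM in KO LT-HSC 1 to 3, against 14.8 and 4489 CPM in WT LT-HSC 1 and 2. All 7 had fitted levels lower in KO, none passed the test, and up to 5 of the 7 were at 0 in a KO library. The summed level of 10 markers of dividing cells was 758 to 1427 CPM in KO LT-HSC and 830 to 924 CPM in WT LT-HSC, and the part of both marker lists in these values was not tested.

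**Figure D2:**
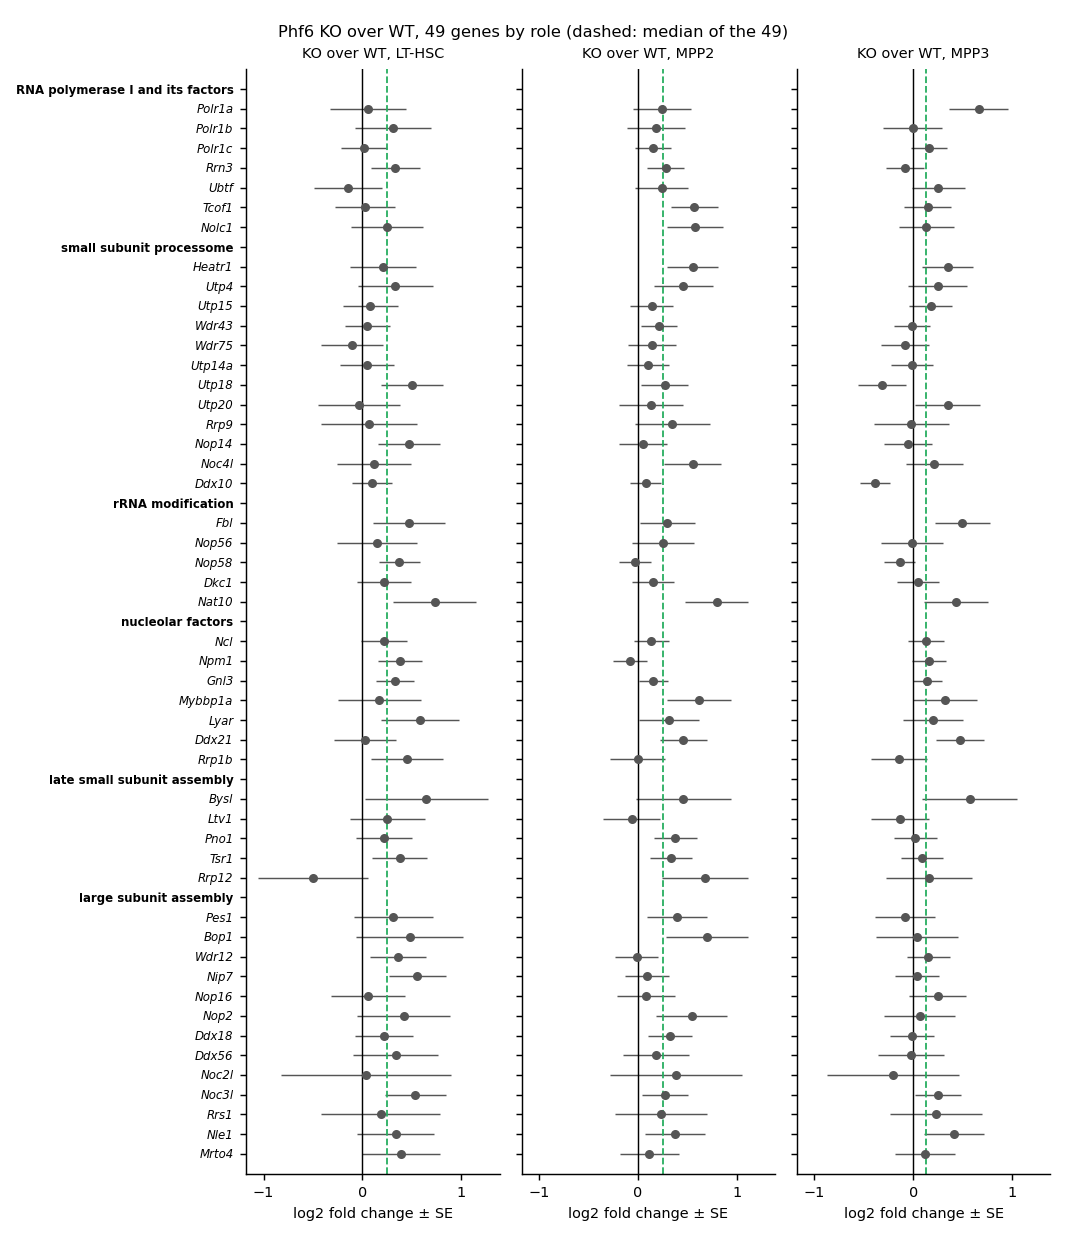
Log2 fold change of KO over WT (horizontal axis) with its standard error for the 49 genes, ordered by role down the page, in LT-HSC, MPP2 and MPP3; the dashed line is the median of the 49. The medians are 0.25, 0.26 and 0.13, and no gene passes the adjusted threshold in any panel.

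In MPP2, fitted levels were higher in KO for 44 genes and lower for 5 (median log2 fold change 0.26), beside 51.0% higher and a median of 0.01 over all genes. None passed the test, beside 0.0142% of all genes, and 3 (6.12%) had an unadjusted p under 0.05, beside 6.72% of all genes, all of the 3 higher in KO. DESeq2 and limma voom called none either, with 3 and 13 at an unadjusted p under 0.05. No gene was higher in every KO library than in every WT library, beside 1.43% of all genes. All 7 genes of RNA polymerase I and its factors and all 12 processome genes had folds above 0, with medians of 0.24 and 0.18. Nop58, Npm1, Rrp1b, Ltv1 and Wdr12 were the 5 below 0, the lowest being Npm1 at -0.08.

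Nat10 had 33.6, 50.2, 77.5 and 74.4 CPM in KO MPP2 1 to 4, against 26.0, 32.1, 54.0 and 23.7 CPM in WT MPP2 1 to 4. Its mean was 58.9 ± 20.9 CPM in KO MPP2 and 34.0 ± 13.8 CPM in WT MPP2 (SD, n = 4 each), a log2 fold change of 0.80 ± 0.32 (SE; adjusted p = 0.738, edgeR). Each KO library was above the WT library of its own number, while KO MPP2 1 and 2 lay below WT MPP2 3. Tcof1, which encodes treacle, a partner of UBTF and RNA polymerase I, had 40.9, 56.1, 54.3 and 88.5 CPM in KO MPP2 1 to 4, against 33.0, 48.6, 46.5 and 33.5 CPM in WT MPP2 1 to 4 (0.57 ± 0.24). Heatr1, a processome component of its first assembly step, had 43.8, 63.2, 53.3 and 60.6 CPM in KO MPP2 1 to 4, against 31.9, 47.3, 38.1 and 33.2 CPM in WT MPP2 1 to 4 (0.55 ± 0.26). In both genes KO MPP2 1 alone fell within the WT range. Nolc1, a chaperone of small nucleolar particles, had 92.8, 216, 231 and 265 CPM in KO MPP2 1 to 4, against 95.3, 135, 185 and 124 CPM in WT MPP2 1 to 4 (0.58 ± 0.28). Ddx21, a nucleolar helicase that couples polymerase I transcription with processing, had 97.1, 189, 162 and 148 CPM in KO MPP2 1 to 4, against 90.8, 108, 127 and 108 CPM in WT MPP2 1 to 4 (0.46 ± 0.24). KO MPP2 2 to 4 lay above all 4 WT libraries in both genes. The adjusted p of Heatr1, Nolc1 and Ddx21 was 0.742, 0.754 and 0.779 (edgeR), and that of Tcof1 0.738. KO MPP2 1 was the lowest of the 4 KO libraries for 46 of the 49 genes. Without the 3 libraries rich in 1 gene, an omission chosen after seeing the data, 48 of 49 genes had higher fitted levels in KO MPP2, with a median of 0.38. Of the 49, 19 had an unadjusted p under 0.05 in that fit, with no share of all genes computed beside it, and still none was called. Within numbers 1 and 2 the count was 38 of 49 (median 0.18), and within numbers 3 and 4 it was 44 of 49 (median 0.33). Leaving out KO MPP2 4 gave a median of 0.10 and leaving out KO MPP2 1 one of 0.40, and total counts gave 0.17. The 7 neutrophil markers, all with fitted levels higher in KO and none called, summed to 5.20 to 14787 CPM in KO MPP2 and 9.20 to 296 CPM in WT MPP2. The 6 B and plasma cell markers summed to 2.32 to 749920 CPM in KO MPP2 and 0.126 to 40572 CPM in WT MPP2, and the 10 markers of dividing cells to 2331 to 3898 CPM in KO MPP2 and 2408 to 2964 CPM in WT MPP2. Their part in the values of the 49 genes was not tested.

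**Figure D3:**
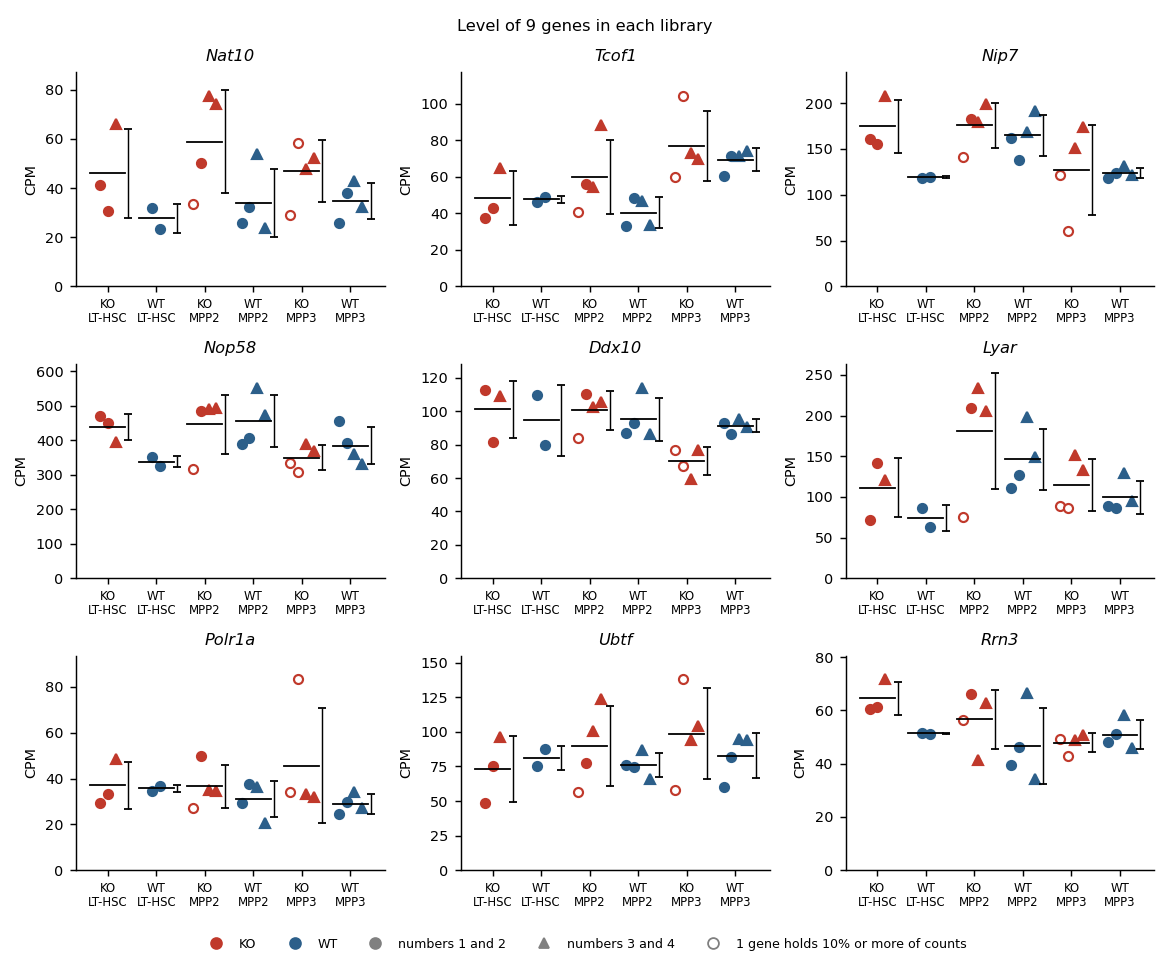
CPM (vertical axis) of 9 genes in each library of the 6 groups; lines are group means, bars ± 1 SD, circles numbers 1 and 2, triangles 3 and 4, and open symbols libraries in which 1 gene holds 10% or more of the counts. Nip7, Nop58 and Rrn3 separate KO from WT in LT-HSC, Ddx10 does so in MPP3 with KO lower, and the open symbol at 83.3 CPM of Polr1a is KO MPP3 2.

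In MPP3, 32 genes had fitted levels higher in KO and 17 lower, with a median of 0.13, beside 50.5% higher and a median of 0.00 over all genes. None passed the test, beside 0.00948% of all genes, and 2 (4.08%) had an unadjusted p under 0.05, beside 5.62% of all genes. DESeq2 and limma voom called none, with 2 and 4 at an unadjusted p under 0.05. No gene was higher in every KO library, beside 1.07% of all genes, and 1 was lower in every KO library, beside 1.62%. That gene was Ddx10, a helicase of the processome. It had 76.8, 67.2, 59.3 and 76.7 CPM in KO MPP3 1 to 4, against 93.2, 86.3, 95.5 and 90.8 CPM in WT MPP3 1 to 4, a log2 fold change of -0.39 ± 0.15 (SE; adjusted p = 0.880, edgeR). Its highest KO value lay below its lowest WT value. Its fold was below 0 in all 21 alternative settings, which reused the same libraries or parts of them and so give no separate support. Of the 12 processome genes 5 had folds above 0, and of the 7 nucleolar factors 6.

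Polr1a had the largest fold in MPP3, 0.66 ± 0.30 on the log2 scale (SE; adjusted p = 0.880, edgeR). It had 34.0, 83.3, 33.3 and 32.1 CPM in KO MPP3 1 to 4, against 24.3, 29.9, 34.2 and 27.1 CPM in WT MPP3 1 to 4. KO MPP3 2 stood apart from the other 7 libraries, and the fold was 0.20 without it. Ddx21 had 89.8, 198, 85.9 and 108 CPM in KO MPP3 1 to 4, against 89.6, 102, 84.1 and 72.6 CPM in WT MPP3 1 to 4 (0.47 ± 0.24), again with KO MPP3 2 highest. Fbl, the methyltransferase of the box C/D particle, had 48.1, 57.8, 77.3 and 68.7 CPM in KO MPP3 1 to 4, against 38.7, 41.4, 62.5 and 36.0 CPM in WT MPP3 1 to 4 (0.50 ± 0.28; adjusted p = 0.923). Each KO library of Fbl was above the WT library of its number, and WT MPP3 3 lay within the KO range. Nle1, a large subunit factor, had 15.4, 19.9, 17.2 and 20.0 CPM in KO MPP3 1 to 4, against 11.2, 17.4, 12.6 and 13.3 CPM in WT MPP3 1 to 4 (0.41 ± 0.30). In KO MPP3 2 the levels went with exon length, a pattern noticed after the values were seen. Of the 10 longest genes, 5 were highest and 2 lowest there among the 4 KO MPP3 libraries. Of the 10 shortest, 0 were highest and 9 lowest there, and of all 49 genes 11 were highest and 25 lowest. The mitochondrial ribosomal RNAs mt-Rnr1 and mt-Rnr2 summed to 117750 CPM in that library and to at most 20540 CPM in any other. Without the 3 libraries rich in 1 gene, 42 of 49 genes had folds above 0, with a median of 0.35. Of the 49, 14 had an unadjusted p under 0.05 in that fit, with no share of all genes computed beside it, and none was called. Within numbers 1 and 2 the count above 0 was 16 of 49 (median -0.12), and within numbers 3 and 4 it was 40 of 49 (median 0.22). The median was 0.01 without KO MPP3 3, 0.03 without KO MPP3 4 and 0.08 without WT MPP3 1 or without WT MPP3 2. Scaled by total counts alone, 17 of 49 were above 0, while the median of all genes moved to -0.19 and that of the 49 to -0.06. The 10 markers of dividing cells all had fitted levels higher in KO MPP3, summing to 1245 to 2293 CPM in KO MPP3 and 736 to 1365 CPM in WT MPP3. Their median log2 fold change was 0.70, and 6 of the 10 had an unadjusted p under 0.05 (edgeR), beside 5.62% of all genes. None of the 10 passed the test. All 6 B and plasma cell markers had fitted levels higher in KO MPP3, summing to 265520, 535, 691 and 556 CPM in KO MPP3 1 to 4 and to 549 to 722 CPM in WT MPP3. All 7 neutrophil markers had fitted levels lower in KO MPP3, summing to 13.3, 108, 11.9 and 9.70 CPM in KO MPP3 1 to 4. Their sums were 1784, 31.9, 13.3 and 15.0 CPM in WT MPP3 1 to 4, so that only WT MPP3 1 lay above the KO range. None of these markers was called, and the part of the 3 lists in the values of the 49 genes was not tested.

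**Figure D4:**
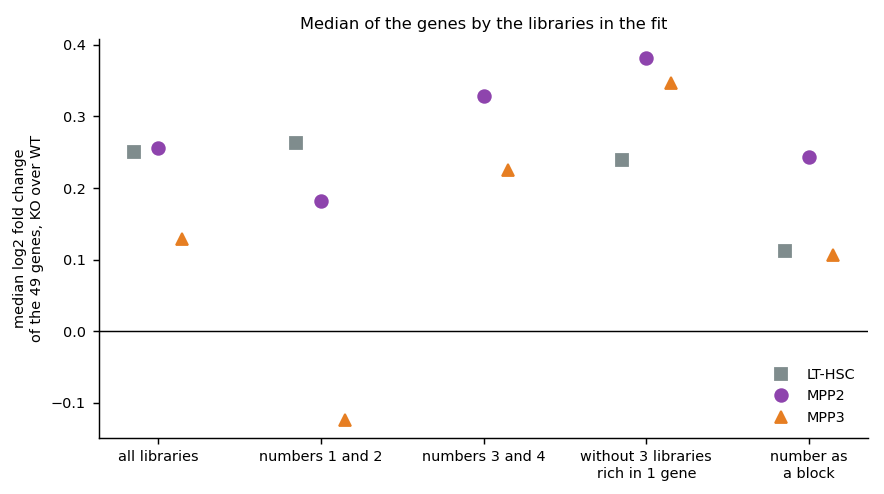
Median log2 fold change of KO over WT over the 49 genes (vertical axis) by which libraries entered the fit (horizontal axis), in LT-HSC, MPP2 and MPP3. The MPP3 median is -0.12 within numbers 1 and 2 and 0.22 within numbers 3 and 4, and the MPP2 median lies above 0 in each subset; numbers 3 and 4 hold no WT LT-HSC.

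With the counts of MPP2 and MPP3 added per mouse, 4 KO mice were set against 4 WT mice, taking each library number as 1 mouse. Of the 49 genes, 44 had fitted levels higher in KO (median log2 fold change 0.17), beside 51.9% higher and a median of 0.01 over 17912 genes. None passed the test, beside 0.0112% of all genes, and none had an unadjusted p under 0.05. DESeq2 and limma voom called none, with 3 and 9 at an unadjusted p under 0.05. No gene was higher in every KO mouse than in every WT mouse, beside 1.19% of all genes. Nat10 averaged 51.3 ± 14.4 CPM in KO mice and 34.0 ± 9.85 CPM in WT mice (SD, n = 4 each; log2 fold change 0.59 ± 0.27, SE). Ddx21 averaged 131 ± 39.9 CPM in KO mice and 96.0 ± 9.20 CPM in WT mice (0.45 ± 0.20), and Heatr1 46.5 ± 11.1 CPM in KO mice and 34.1 ± 7.04 CPM in WT mice (0.45 ± 0.21). Fbl and Tcof1 followed at 0.39 ± 0.22 and 0.28 ± 0.16. The adjusted p of all 5 was 0.995 (edgeR), and the SD among KO mice was close to the difference between the groups for each of them. The size of the median went with the libraries and the scaling. It was 0.06 with 34 of 49 above 0 within numbers 1 and 2, 0.27 with 46 of 49 above 0 within numbers 3 and 4, and 0.06 with 34 of 49 above 0 with total counts. Without KO mice 1 and 2, which hold the libraries rich in 1 gene, it was 0.39 with 48 of 49 above 0. With 1 mouse left out it lay between 0.11 (without KO mouse 4) and 0.35 (without KO mouse 1), being 0.30 without WT mouse 3. None of these fits called any of the 49.

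The core of RNA polymerase I and its initiation factors showed no called change in any population. Ubtf, the factor that PHF6 is reported to bind, had 48.3, 75.2 and 96.4 CPM in KO LT-HSC 1 to 3, against 75.1 and 87.5 CPM in WT LT-HSC 1 and 2 (log2 fold change -0.15 ± 0.34, SE). It had 56.7, 77.3, 100.4 and 124 CPM in KO MPP2 1 to 4, against 76.0, 74.9, 87.1 and 65.7 CPM in WT MPP2 1 to 4 (0.24 ± 0.27). In MPP3, Ubtf had 58.2, 138, 93.9 and 104 CPM in KO libraries 1 to 4, against 60.2, 82.1, 94.6 and 94.2 CPM in WT libraries 1 to 4 (0.25 ± 0.27). The KO range held all WT values of Ubtf in each population, and the KO libraries numbered 1 were the lowest of their groups. Rrn3 had 60.6, 61.4 and 71.6 CPM in KO LT-HSC 1 to 3, against 51.6 and 51.1 CPM in WT LT-HSC 1 and 2 (0.33 ± 0.25), with no overlap. Rrn3 averaged 56.6 ± 11.0 CPM in KO MPP2 and 46.6 ± 14.1 CPM in WT MPP2 (SD, n = 4 each; 0.28 ± 0.19), and 47.9 ± 3.45 CPM in KO MPP3 and 50.9 ± 5.49 CPM in WT MPP3 (SD, n = 4 each; -0.09 ± 0.19). Its groups overlapped in both progenitors, and its promoter is the one with the E-box pair printed above. Polr1b, the next largest subunit, had 48.9, 63.1 and 59.2 CPM in KO LT-HSC 1 to 3, against 48.5 and 43.8 CPM in WT LT-HSC 1 and 2 (0.31 ± 0.39), where the lowest KO value and the highest WT value nearly met. Polr1b was at 0.18 ± 0.30 in MPP2 and close to 0 in MPP3, with 46.2 ± 12.5 CPM in KO MPP3 and 46.4 ± 13.2 CPM in WT MPP3 (SD, n = 4 each). Polr1c, a subunit shared with RNA polymerase III, was at 0.01 ± 0.24 in LT-HSC and, in the progenitors, at 0.15 ± 0.18 in MPP2 and 0.16 ± 0.18 in MPP3. Polr1a was at 0.05 ± 0.38 in LT-HSC and 0.24 ± 0.30 in MPP2.

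The genotype effect was then compared between populations by the interaction terms of the same fit. None of the 49 genes and 0.00% of all genes passed in MPP2 against LT-HSC, nor did any in MPP3 against LT-HSC (0.00%) or in MPP3 against MPP2 (0.00%), by edgeR's quasi-likelihood test. At an unadjusted p under 0.05 there were 0, 0 and 1 of the 49 by edgeR, 0, 2 and 1 by DESeq2 and 1, 1 and 2 by limma voom, and neither of those tools called any. The 1 gene was Ddx10, whose KO effect was lower in MPP3 than in MPP2 by a log2 difference of -0.46 ± 0.22 (SE). Utp18, Rrn3, Tcof1 and Pno1 followed there at -0.58 ± 0.34, -0.37 ± 0.27, -0.42 ± 0.33 and -0.36 ± 0.31. Utp18, a processome protein, had the smallest p in MPP3 against LT-HSC, a difference of -0.81 ± 0.40. Its levels were 63.4, 44.6, 85.8 and 83.9 CPM in KO MPP3 1 to 4, against 82.8, 88.4, 95.1 and 78.9 CPM in WT MPP3 1 to 4. In LT-HSC, Utp18 had 82.7, 81.8 and 109.8 CPM in KO libraries 1 to 3, against 72.6 and 56.9 CPM in WT libraries 1 and 2. So Utp18 stood higher in KO in each LT-HSC library and its groups overlapped in MPP3. Nop58, Ddx10, Nip7 and Rrn3 followed with differences of -0.51 ± 0.26, -0.48 ± 0.25, -0.52 ± 0.37 and -0.42 ± 0.31 in MPP3 against LT-HSC. Rrp12, a late factor of the small subunit, had the largest difference in MPP2 against LT-HSC, 1.19 ± 0.70 (SE). It had 11.0, 13.2 and 5.70 CPM in KO LT-HSC 1 to 3, against 11.1 and 17.2 CPM in WT LT-HSC 1 and 2. It had 10.8, 20.6, 22.4 and 48.6 CPM in KO MPP2 1 to 4, against 8.99, 15.8, 26.7 and 12.4 CPM in WT MPP2 1 to 4, so that KO MPP2 4 stood apart. Npm1, Nop58, Tcof1 and Nip7 followed in MPP2 against LT-HSC at -0.46 ± 0.28, -0.40 ± 0.26, 0.55 ± 0.38 and -0.46 ± 0.37.

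The next comparisons set the populations against each other with both genotypes weighted equally. MPP2 stood above LT-HSC in 47 of the 49 genes, with a median log2 fold change of 0.33, beside 52.0% higher and a median of 0.03 over all genes. None passed edgeR's quasi-likelihood test, beside 7.82% of all genes. Of the 49, 12 (24.5%) had an unadjusted p under 0.05, all of them higher in MPP2. That share was 22.9% over all genes and 29.3% over those of 10 CPM or more. DESeq2 called 2 (Lyar and Pno1) and limma voom 10, where these tools called 2546 and 3988 of all genes. No gene separated all 8 MPP2 from all 5 LT-HSC libraries, beside 5.11% of all genes. All 12 processome genes, all 5 late small subunit genes and all 13 large subunit genes had folds above 0, with medians of 0.32, 0.54 and 0.36, and only Rrn3 and Polr1a, of the polymerase, lay below 0. Lyar, a nucleolar zinc-finger protein of cell growth, came closest to the threshold. It had 75.6 to 234 CPM in the 8 MPP2 libraries (median 173), against 63.3 to 142 CPM in the 5 LT-HSC libraries (median 85.8). Its log2 fold change was 0.84 ± 0.26 (SE; adjusted p = 0.0505, edgeR), and the ranges overlapped. Pno1, which keeps the small subunit precursor from early cleavage, had 69.8 to 127 CPM in MPP2 (median 106), against 62.2 to 79.6 CPM in LT-HSC (median 72.4), 0.54 ± 0.18 on the log2 scale (adjusted p = 0.0794). Gnl3 had 343 to 510 CPM in MPP2 (median 415), against 282 to 398 CPM in LT-HSC (median 325), 0.33 ± 0.12 (adjusted p = 0.109). Their LT-HSC highs lay under their MPP2 medians. Mrto4, a factor of the ribosomal stalk, was at 0.61 ± 0.25 (adjusted p = 0.151), with 53.2 to 136 CPM in MPP2 and 52.7 to 85.9 CPM in LT-HSC. Wdr12, of the PES1 and BOP1 complex, was at 0.42 ± 0.18 (adjusted p = 0.163), with 163 to 288 CPM in MPP2 and 138 to 226 CPM in LT-HSC. The polymerase genes were at 0.10 for Ubtf, -0.16 for Rrn3, -0.11 for Polr1a, 0.19 for Polr1b and 0.12 for Polr1c. Without the 3 libraries rich in 1 gene, 12 genes rose in MPP2 (Lyar, Pno1, Wdr12, Ncl, Mrto4, Dkc1, Gnl3, Utp18, Noc4l, Rrp9, Utp4 and Ddx18), beside 14.3% of all genes called in that fit, with a median of 0.38 over the 49. Within numbers 1 and 2 none was called, and the median was 0.09. With the mouse as a block, 39 of 49 were above 0 with a median of 0.17, and with total counts 36 of 49 with a median of 0.12. The 10 markers of dividing cells were all called higher in MPP2, with a median log2 fold change of 1.54, and their part in the values of the 49 genes was not tested.

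**Figure D5:**
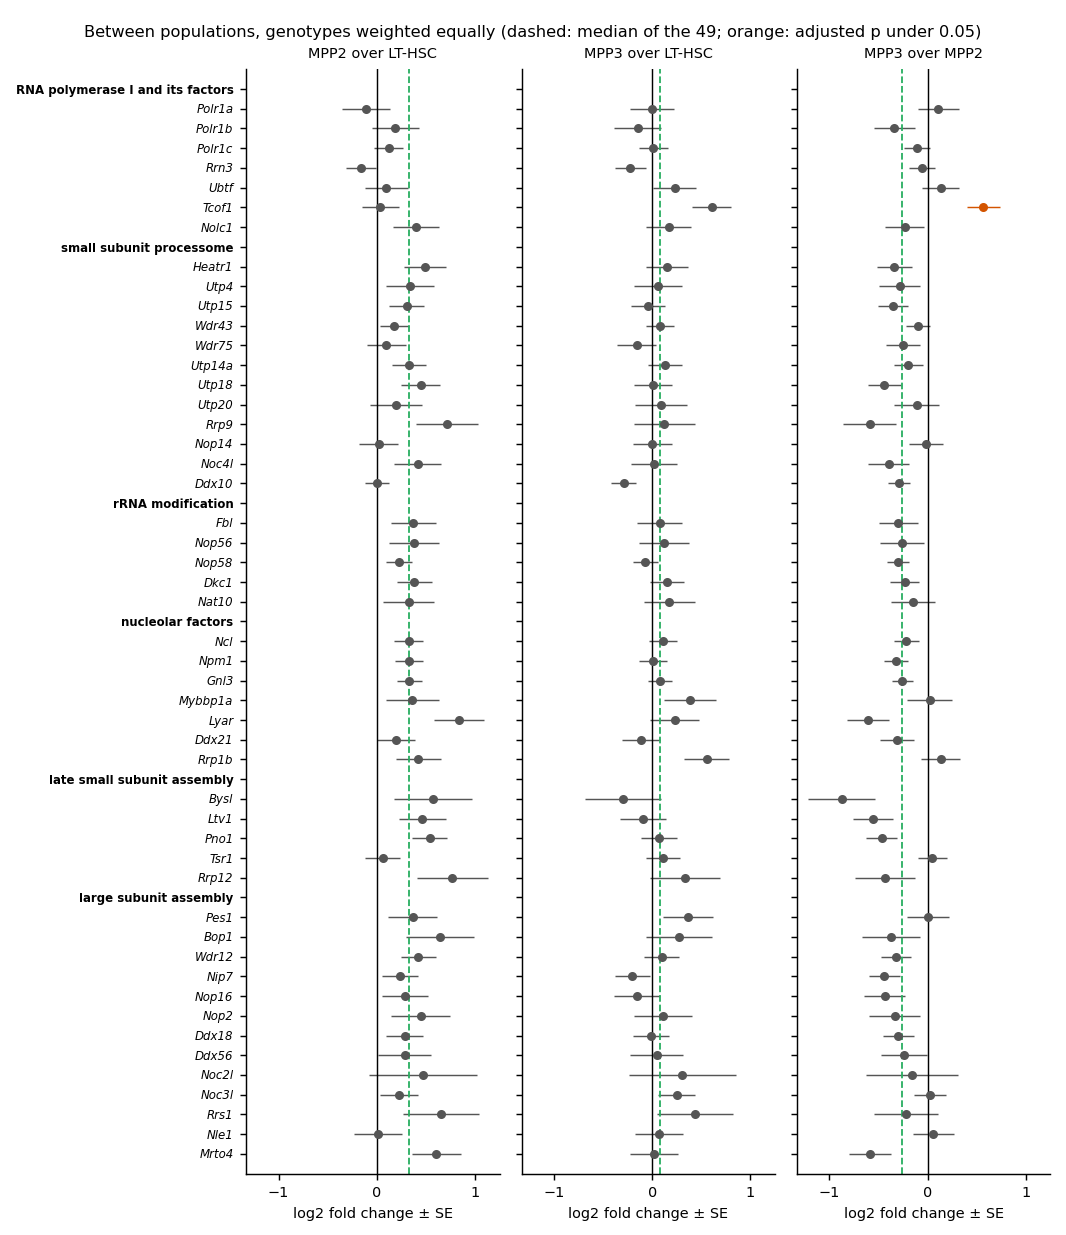
Log2 fold change (horizontal axis) with its standard error for the 49 genes by role, for MPP2 over LT-HSC, MPP3 over LT-HSC and MPP3 over MPP2; the dashed line is the median of the 49 and orange marks an adjusted p under 0.05. The medians are 0.33, 0.08 and -0.26, and Tcof1 in MPP3 over MPP2 is the 1 orange gene.

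MPP3 stood above LT-HSC in 36 of the 49 genes, with a median log2 fold change of 0.08, beside 53.7% higher and a median of 0.05 over all genes. None passed edgeR's test, beside 6.41% of all genes, and 3 (6.12%) had an unadjusted p under 0.05, beside 19.1% of all genes, with 2 of them higher and 1 lower in MPP3. DESeq2 and limma voom called 1 each, Tcof1, where these tools called 2096 and 3415 of all genes. With them, 3 and 3 of the 49 had an unadjusted p under 0.05. No gene separated the 8 MPP3 from the 5 LT-HSC libraries, beside 5.68% of all genes. Tcof1 had 60.0 to 104 CPM in MPP3 (median 71.3), against 37.4 to 64.9 CPM in LT-HSC (median 46.4), 0.60 ± 0.20 on the log2 scale (SE; adjusted p = 0.0757, edgeR). Rrp1b, a nucleolar partner of protein phosphatase 1, was at 0.55 ± 0.23 (adjusted p = 0.186), with 35.5 to 68.9 CPM in MPP3 and 21.9 to 46.8 CPM in LT-HSC. Ddx10 was at -0.29 ± 0.12 (adjusted p = 0.198), with 59.3 to 95.5 CPM in MPP3 and 79.6 to 113 CPM in LT-HSC. All 3 genes overlapped between the populations. Mybbp1a, a nucleolar co-factor of transcription, and Pes1, of the complex with BOP1 and WDR12, were at 0.39 ± 0.27 and 0.37 ± 0.25. The polymerase genes were at 0.23 for Ubtf, -0.22 for Rrn3, -0.15 for Polr1b and 0.01 for Polr1c, and Polr1a averaged 37.3 ± 18.9 CPM in MPP3 (SD, n = 8) and 36.4 ± 7.33 CPM in LT-HSC (SD, n = 5). The sign of the median depended on the fit: within numbers 1 and 2 it was -0.14 with 18 of 49 above 0, with total counts -0.04 with 19 of 49 above 0, and with the mouse as a block -0.06 with 19 of 49 above 0. Without the 3 libraries rich in 1 gene it was 0.17 with 38 of 49 above 0, and Rrp1b rose (adjusted p = 0.0269, edgeR), beside 8.27% of all genes called. It was 0.01 without WT LT-HSC 2, 0.03 without KO MPP3 3 and 0.03 without KO MPP3 4.

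MPP3 stood below MPP2 in 40 of the 49 genes, with a median log2 fold change of -0.26, beside 50.6% higher and a median of 0.01 over all genes. All 12 processome genes, all 5 modification genes and 10 of the 13 large subunit genes had folds below 0, with medians of -0.29, -0.26 and -0.30. Tcof1 rose in MPP3 and was the 1 gene called, beside 6.87% of all genes, while 16 (32.7%) had an unadjusted p under 0.05, beside 22.2% of all genes and 30.4% of those of 10 CPM or more, the other 15 of them lower in MPP3. DESeq2 called 2 and limma voom 8, where these tools called 2387 and 2578 of all genes. No gene separated the 8 MPP3 from the 8 MPP2 libraries, beside 1.30% of all genes. Tcof1 had 60.0 to 104 CPM in MPP3 (median 71.3), against 33.0 to 88.5 CPM in MPP2 (median 47.5). Its log2 fold change was 0.57 ± 0.17 (SE; adjusted p = 0.0459, edgeR). Only KO MPP2 4, at 88.5 CPM, lay above the lowest MPP3 library. The call was held narrowly: the adjusted p lay between 0.00879 and 0.709 over 31 alternatives, 12 of them under the threshold, and leaving out 1 library at a time kept it in 3 of 16 fits (without WT MPP2 2, KO MPP2 4 or KO MPP3 1). WT libraries alone gave 0.77 (adjusted p = 0.04425), KO libraries alone 0.35 (adjusted p = 0.709), and the fit without the 3 libraries rich in 1 gene gave 0.46 (adjusted p = 0.115). Pno1 was at -0.47 ± 0.15 (adjusted p = 0.0765), with 47.3 to 97.1 CPM in MPP3 and 69.8 to 127 CPM in MPP2. Lyar was at -0.61 ± 0.21 (adjusted p = 0.0975), with 86.1 to 151 CPM in MPP3 and 75.6 to 234 CPM in MPP2. Mrto4 was at -0.59 ± 0.21 (adjusted p = 0.105), with 37.2 to 99.6 CPM in MPP3 and 53.2 to 136 CPM in MPP2. Each had its median under the MPP2 median, with ranges that overlapped. Nip7 was at -0.44 ± 0.16, with 60.4 to 174 CPM in MPP3 and 138 to 199 CPM in MPP2, and Bysl, a late factor of the small subunit, had the largest fold, -0.87, with 11.7 to 50.6 CPM in MPP3 and 15.4 to 87.1 CPM in MPP2. The polymerase genes were at 0.13 for Ubtf, -0.06 for Rrn3, 0.11 for Polr1a, -0.34 for Polr1b and -0.11 for Polr1c. With the mouse as a block, Tcof1 rose (adjusted p = 0.0285) and Lyar fell (adjusted p = 0.0330), beside 8.16% of all genes called. Within numbers 3 and 4, 7 genes fell (Rrp9, Nop58, Lyar, Ddx21, Ltv1, Nop16 and Mrto4), beside 9.61% of all genes called, and within numbers 1 and 2 none was called. Without the 3 libraries rich in 1 gene, 44 of 49 were below 0 with a median of -0.22, and 1 gene, Ddx21, was called, lower in MPP3 (adjusted p = 0.0211), beside 5.48% of all genes. Of the 10 markers of dividing cells, 9 were called lower in MPP3, with a median of -1.12, and their part in the values of the 49 genes was not tested.

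A further list of 82 genes of the pathway (other subunits of RNA polymerase I and its selectivity factor, other assembly factors, and MYC with its partners) was tested in the same fit. In KO against WT, 61 of the 82 had folds above 0 in LT-HSC, 54 of the 82 in MPP2 and 44 of the 82 in MPP3 (74.4%, 65.9% and 53.7%), beside 50.3%, 51.0% and 50.5% of all genes. The medians were 0.14, 0.10 and 0.03. None was called by edgeR, with 1, 7 and 2 at an unadjusted p under 0.05, all higher in KO. In MPP2 against LT-HSC, 72 were above 0 and 3.66% were called, beside 7.82% of all genes. Mphosph10 (processome; log2 fold change 0.51, adjusted p = 0.0445) and Nop10 (box H/ACA particle; 0.50, adjusted p = 0.0409) rose, while Mycn, the MYC paralogue known from stem cells, fell by 1.86 on the log2 scale (adjusted p = 0.00260). In MPP3 against MPP2, 61 were below 0 and 6.10% were called, beside 6.87% of all genes. Nop10, Snu13, Pak1ip1 and Polr1d, a subunit shared with RNA polymerase III, fell (log2 fold changes -0.52, -0.51, -0.41 and -0.32). Mxd4, a repressor that pairs with MAX, rose in MPP3 against MPP2 by 0.90 and against LT-HSC by 1.01, and Mycn fell by 2.09 on the log2 scale in MPP3 against LT-HSC, where these 2 genes (2.44%) were called, beside 6.41% of all genes. The comparisons between populations share libraries, so their values are not independent of each other.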

How the data were processed

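RNA was measured in sorted LT-HSC, MPP2 and MPP3 of Phf6 KO and WT mice, 4 pairs per the series' design text, with Nextera XT libraries of total RNA per the labels' protocols. The authors deposited 1 table of raw counts, and the submitters' processing notes name STAR and mm10. No source used here gives the counting program, annotation or strand setting. Of 54446 identifiers, 54409 matched GENCODE M21 and 37 did not. No pair of libraries had identical counts.

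The main test was edgeR 4.0.16 in R 4.3.3 (robust quasi-likelihood, TMM factors), in 1 fit over the 21 libraries. The filterByExpr filter with a minimum count of 10 left 21100 genes, or 17912 for MPP2 and MPP3 summed per mouse. P-values were adjusted by Benjamini-Hochberg over all genes, with a threshold of 0.05. That libraries of 1 genotype and number come from 1 mouse was inferred from adjoining numbers in the sample titles. For KO LT-HSC 3 that number adjoins those of KO 4, and blocks were also fitted with it as 4. P-values set each difference against the spread between these libraries. The main fit took all libraries as independent, also those inferred to come from 1 mouse. DESeq2 1.42.0, limma 3.58.1 voom with quality weights, other scalings and filters, blocks, batches by library number and leaving out each library were alternatives. The scripts were tested on simulated data. CPM were computed from the counts in tested genes times the TMM factor. In addition to Ubtf, Rrn3, Polr1a, Polr1b and Polr1c, the text names called genes, and otherwise the 5 of smallest p in each comparison, with a few named after their values were seen (Utp18, Rrp12 and Bysl levels, Noc2l, the no-overlap genes).

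The members, roles and lists were chosen with earlier results of these data known. KO and WT libraries of 1 number correlated in their deviations at 0.207 to 0.282 in MPP2, where every pair was over 0.1. The correlations were 0.0807 to 0.141 in MPP3 and 0.0390 and 0.0417 in LT-HSC. The main fit did not pair libraries by number in any population. Pairing by number was run only as an alternative, with the label number as a block. In MPP2 that block gave a median log2 fold change of 0.24 over the described genes and called none of them. Of these genes, 6 had an unadjusted p under 0.05 in that fit (edgeR). Promoter windows are RefSeq's, GRCm38.p6.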

Additional observations from a re-analysis of the deposited data

Results flagged for a closer look

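Of 104 sets of 4 libraries examined (a named gene or the sum in 1 group), 7 had a library that stood far from the other 3, with a gap over the range above Dixon's critical value for 4 samples. Chance flags about 1 in 20 groups. KO MPP2 1 was the low library for 4 genes: Mrto4 at 53.2 CPM with the next at 123, Nop58 at 318 with the next at 484, Pno1 at 81.9 with the next at 124, and Polr1c at 74.0 with the next at 117 CPM. This library had 19.79% of its counts in Igkc. KO MPP3 2 was the high library for 2 genes, Heatr1 at 66.6 CPM with the next at 34.1 and Polr1a at 83.3 CPM with the next at 34.0. In WT MPP2, Wdr12 was lowest in library 2, at 204 CPM with the next at 255 CPM. The part of the library's makeup in these values was not tested.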

How the results depend on the processing

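Of 1989 values of single genes under alternatives, 1853 kept their direction and side of the threshold, 78 changed sign without a call in either fit, 39 passed the threshold newly and 19 no longer passed it; none reversed. No KO against WT comparison called any of the 49 genes under any alternative. Genes above 0 in KO MPP3, 32 of 49, numbered 17 with total counts and 16 within numbers 1 and 2. MPP2 against LT-HSC, with 0 of the 49 called, gave 1 with a minimum count of 30, 2 with DESeq2, 10 with limma voom, 12 without the 3 libraries rich in 1 gene (chosen after seeing the data) and 0 to 3 with 1 library left out. MPP3 against LT-HSC had 36 genes above 0, and 19 with total counts, 19 with the mouse as replicate block, 21 with KO LT-HSC 3 taken as mouse 4 in that block, 21 with a batch term and 18 within numbers 1 and 2. Its calls, 0, were 1 with DESeq2, limma voom or without those 3 libraries, and 0 to 1 with 1 library left out. MPP3 against MPP2, with 1 called, gave 0 with total counts, with no filter, within numbers 1 and 2 and in KO libraries alone, 2 with DESeq2, 8 with limma voom, 2 with either mouse block, 7 with a batch term, 7 within numbers 3 and 4, and 0 to 4 with 1 library left out. The cause of these changes was not tested, and the subsets also hold fewer libraries. With the label number as a replicate block, 34 genes were above 0 in KO LT-HSC, 44 in KO MPP2 and 28 in KO MPP3, and it changed no call of the 49. Over all genes, DESeq2 called 28, 35 and 36 in LT-HSC, MPP2 and MPP3 KO against WT, where edgeR called 1, 3 and 2. Calls over all genes ran over the alternatives from 149 to 3988 for MPP2 against LT-HSC, 274 to 3415 for MPP3 against LT-HSC and 60 to 2578 for MPP3 against MPP2. Total counts moved the median of all genes by -0.15 in KO against WT MPP2, -0.20 in MPP3 and -0.15 in the sums, and by -0.25 in MPP2 against LT-HSC, -0.13 in MPP3 against LT-HSC and 0.12 in MPP3 against MPP2. Libraries of 100 to 200 cells and 2 WT LT-HSC libraries limit the precision.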
